A study of Mus musculus with 2 samples.

Results

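The let-7 family guide arms examined here were the 9 mature microRNAs mmu-let-7a-5p, mmu-let-7b-5p, mmu-let-7c-5p, mmu-let-7d-5p, mmu-let-7e-5p, mmu-let-7f-5p, mmu-let-7g-5p, mmu-let-7i-5p and mmu-miR-98-5p. They were chosen by probe name as every let-7 probe marked as a -5p arm, plus miR-98-5p, and made up 9 of the 1892 mouse microRNA probes on the array. MicroRNA levels were measured in mouse skin and oral mucosa, both unwounded, on 1 single-colour (Cy5) array per tissue. Total RNA (2 µg per array) was a pool of 3 animals, and the mice of the study were female Balb/c of 8 to 10 weeks of age, without any treatment or transgene in either group. The wounding experiments of the study used dorsal skin and hard palate, but the labels of the arrays name only skin and oral mucosa, and whether the RNA came from epithelium alone is not settled by the sources used here. With 1 pool per tissue there was no replicate across animals, so every difference is between 2 arrays and could not be tested. Each SD comes from the 2 repeat spots of a probe (n = 2 on each array) and covers technical error within an array only.

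let-7 microRNAs are small RNAs of the microRNA pathway that guide Argonaute proteins to messenger RNAs and lower their translation or stability. Target choice rests mainly on the seed near the 5′ end, which family members share, and known targets include Hmga2, Lin28a, Myc and Ras genes. The RNA-binding protein LIN28 blocks the maturation of let-7 precursors in early and undifferentiated cells, and mature let-7 is abundant in differentiated adult tissues. Each precursor hairpin gives a guide arm, here the -5p arm, and a passenger arm, the -3p arm, most of which is usually degraded.

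The mature sequences are shown because members that share a seed, and in some cases all but 1 base, gave different values on the arrays. They are written 5′ to 3′ from RefSeq (GRCm38.p6), with the seed, bases 2 to 8, in capitals.
mmu-let-7a-5p: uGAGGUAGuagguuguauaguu
mmu-let-7b-5p: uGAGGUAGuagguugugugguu
mmu-let-7c-5p: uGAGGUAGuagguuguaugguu
mmu-let-7d-5p: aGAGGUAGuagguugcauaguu
mmu-let-7e-5p: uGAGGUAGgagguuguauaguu
mmu-let-7f-5p: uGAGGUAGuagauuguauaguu
mmu-let-7g-5p: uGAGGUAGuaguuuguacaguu
mmu-let-7i-5p: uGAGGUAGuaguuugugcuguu
mmu-miR-98-5p: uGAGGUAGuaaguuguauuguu

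All 9 members had 22 bases and the same seed, and the target sequences given for the probes were identical to RefSeq for 9 of 9. Positions are counted from 1 at the 5′ end, with the let-7a-5p base first. Relative to let-7a-5p, let-7c-5p carried A19G, let-7e-5p U9G and let-7f-5p G12A, a single change each. let-7b-5p carried A17G and A19G, let-7d-5p U1A and U16C, let-7g-5p G12U and U18C, and miR-98-5p G11A and A19U. let-7i-5p was the farthest from let-7a-5p, with G12U, A17G, U18C and A19U. None of these changes lies in the seed.

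The 9 guide arms come from 12 precursor genes in RefSeq (GRCm38.p6). Mirlet7a-1 (chr13:48538179-48538272), Mirlet7f-1 (chr13:48537829-48537917) and Mirlet7d (chr13:48536012-48536114) lie within 2261 bases on the minus strand, outside any other annotated gene. Mirlet7c-2 (chr15:85706603-85706697) and Mirlet7b (chr15:85707319-85707403) lie within 801 bases inside the long non-coding RNA gene Lncppara. Mirlet7f-2 (chrX:151912346-151912428) and Mir98 (chrX:151913214-151913321) lie within 976 bases inside the span of Huwe1, which encodes a ubiquitin ligase. Mirlet7a-2 (chr9:41536716-41536811) lies in Mir100hg, Mirlet7e (chr17:17830352-17830444) in Spaca6 and Mirlet7g (chr9:106178840-106178927) in Wdr82. Mirlet7c-1 (chr16:77599657-77599750) and Mirlet7i (chr10:122985640-122985724) overlapped no other annotated gene. The mature let-7a-5p, let-7c-5p and let-7f-5p each have a pair of precursor genes with the same guide sequence, so the array cannot tell which locus their signal came from.

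Spot brightness is given in scanner units as deposited, without background subtraction. Detection required a mean spot brightness at least 3 SD over the average of 16 empty spots, which came to 59.9 (skin) and 71.8 (oral mucosa). Of the 1892 probes, 562 passed on at least 1 array and 394 on both. Among the microRNAs listed by cell type, 5 of 5 keratinocyte microRNAs were detected on both arrays. Their summed signals were 47902 in skin and 45486 in oral mucosa before any scaling. On the normalized log2 scale used below for the members, all 5 were lower in oral mucosa than in skin, with a median difference of -0.51, but only 2 of the 5 with quantile normalization, where the median was 0, and 4 without normalization. Of them miR-200c-3p was past 2-fold, at -1.23 (SD 0.46). The 5 mesenchyme microRNAs were all more than 2-fold higher in oral mucosa on the same scale, and 4 of them with quantile normalization (summed signal 516 in skin and 1871 in oral mucosa). The red blood cell microRNA miR-451a was also higher there (67.3 in skin and 3056 in oral mucosa), while miR-144-3p was not detected. The endothelial list summed to 81.6 and 200.2, the leukocyte list to 99.7 and 304, and the skeletal muscle list to 297 and 428 in skin and oral mucosa. These sums include background and undetected probes, as miR-126a-5p, miR-223-3p and miR-1a-3p were detected on neither array. In these lists only miR-206-3p was detected on both arrays, at -0.19 (SD 0.36), and the others detected passed the limit in oral mucosa alone. Of the muscle microRNAs, miR-133a-3p and miR-133b-3p lay 0.71 and 0.54 above the dimmest signal detected in skin. These are lower bounds, so neither can be placed on either side of 2-fold. The part of these cell types in the let-7 values was not tested. Fewer cells of a type and less RNA per cell cannot be told apart in such samples.

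All 9 members were detected on both arrays. The brightness of different probes is not compared here, since probes differ in how well they bind and only the same probe on both arrays gives a measure. To compare tissues, signals were put on a common scale by Variance Stabilizing Normalization (VSN), a fit of 1 offset and 1 scale per array whose values follow log2 for bright spots. Differences are log2 values of oral mucosa minus skin on this scale, so that a negative value means higher in skin, and a microRNA passed the size rule when the difference reached 1, that is 2-fold. The fitted scales differed 1.38-fold, with oral mucosa the brighter array, a shift of 0.46 on the log2 scale, and differences are therefore relative to the bulk of the probes.

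The guide arms let-7a-5p, let-7d-5p, let-7e-5p, let-7f-5p and miR-98-5p were more than 2-fold higher in skin, and let-7b-5p, let-7c-5p, let-7g-5p and let-7i-5p were within 2-fold. The first group is 5 of the 9 members, or 55.6%. Of all microRNAs detected on at least 1 array, 14.9% were higher in skin by the same rule, and of those detected on both arrays, 14.7%. Of the members, 0 were higher in oral mucosa by the rule, against 13.7% of all detected. The median difference of the members was -1.06 and that of all detected microRNAs was -0.01. As most members are bright, the 103 microRNAs with a signal of at least 500 on each array may also be set beside them, with a median of -0.17 and 13.6% higher in skin. The members let-7e-5p and miR-98-5p are dimmer than that, and the other members are themselves among the 103. The difference was below 0 for 7 of 9 members (77.8%) and for 53.3% of the microRNAs detected on both arrays. The count of members rested on the scaling: quantile normalization left 2, scaling to the array median left 3, and without normalization 1 member was past the rule in each direction.

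let-7e-5p showed the largest difference among the members. Its spots read 361 and 701 in skin against 211 and 218 in oral mucosa, and both skin spots were brighter than both oral mucosa spots. The difference was -2.02 (SD 0.73), or 4.04-fold higher in skin. It had the widest error of the members, since its skin spots differed by 0.96 on the log2 scale. Its 2 spots taken one at a time gave differences of -1.43 and -2.41, both past the size rule.

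miR-98-5p, the member that carries another family number but the let-7 seed, was the dimmest on each array. It read 127 and 111 in skin and 90.7 and 76.7 in oral mucosa. The groups of spots did not overlap, but the oral mucosa mean of 83.7 was only 1.17 times the detection limit. The difference was -1.58 (SD 0.43), and it depended on the processing. With the mean of the empty spots subtracted it was -1.55 after scaling to the 75th percentile and -1.70 after scaling to the spike controls, both past 2-fold. Log2 signals with the background left in gave -0.96 and -0.81 when scaled to the 75th percentile and to the array median. Without background subtraction or scaling the value was -0.51.

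let-7f-5p read 4844 and 6397 in skin and 2933 and 2825 in oral mucosa, without overlap. Its difference was -1.44 (SD 0.29). let-7d-5p, the member that starts with A rather than U, read 3987 and 5612 in skin and 2987 and 2833 in oral mucosa, again without overlap. Its difference was -1.19 (SD 0.36). Skin was the brighter array for both, at 2.71-fold and 2.29-fold on the VSN scale.

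let-7a-5p, the form conserved from worms to humans, had the closest repeat spots in skin. They read 9955 and 9784, against 6905 and 6205 in oral mucosa. The spots were well apart, but the difference of -1.06 (SD 0.11) was within its SD of the size rule, and the 4 pairings of a skin with an oral mucosa spot gave -1.15 to -0.97. It was past 2-fold under 6 of 14 settings, each a way of scaling the arrays or of choosing their spots, and below 0 under all 14.

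let-7c-5p and let-7b-5p were within 2-fold between the tissues, and the sign of both depended on the scaling. let-7c-5p read 9816 and 11517 in skin and 12454 and 10075 in oral mucosa, so its spots overlapped in scanner units. Its difference was -0.38 (SD 0.27), with -0.70 from the second spots alone and 0.08 without normalization. let-7b-5p read 6874 and 6576 in skin and 8763 and 7043 in oral mucosa, where both spots were the brighter ones before scaling. On the VSN scale its difference was -0.23 (SD 0.23), about the size of its error, and it was 0.23 without normalization.

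let-7i-5p and let-7g-5p lay on the oral mucosa side. let-7i-5p read 585 and 844 in skin and 1441 and 1519 in oral mucosa, without overlap, and its difference was 0.62 (SD 0.40), or 1.54-fold higher in oral mucosa. It was above 0 under 14 of 14 settings and past 2-fold only without normalization, at 1.05. let-7g-5p read 1194 and 1756 in skin and 2350 and 2148 in oral mucosa. Its difference of 0.16 (SD 0.41) was smaller than its error, its spots overlapped on the VSN scale, and it changed sign to -0.22 with the second spots alone. Over all 9 members, 8 had spots that did not overlap on the VSN scale (88.9%), as did 67.8% of the microRNAs detected on both arrays.

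**Figure D1:**
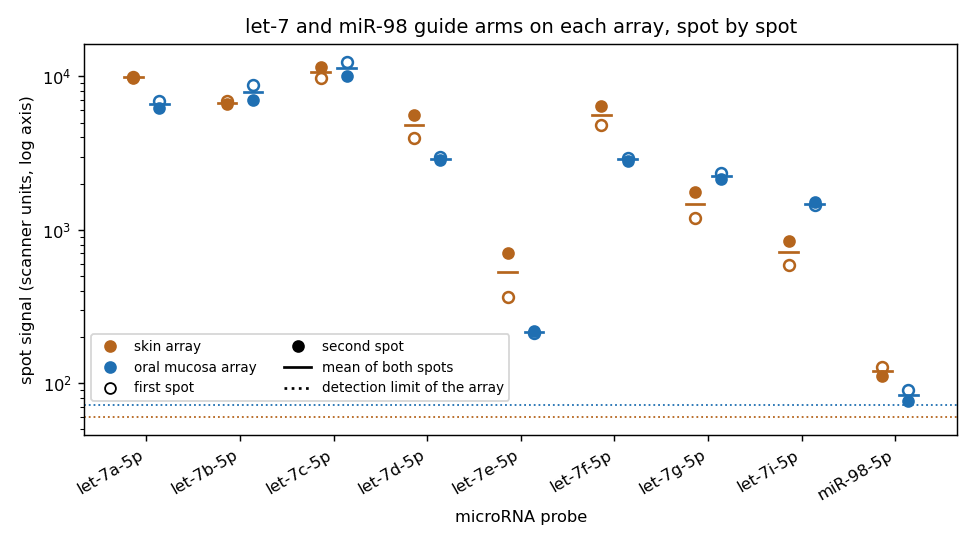
Brightness of each repeat spot of the 9 let-7 and miR-98 guide arms in scanner units on a log axis, with the skin and oral mucosa arrays marked separately. let-7e-5p reads 361 and 701 in skin against 211 and 218 in oral mucosa, while for let-7i-5p the oral mucosa spots (1441 and 1519) lie above the skin spots (585 and 844).

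**Figure D2:**
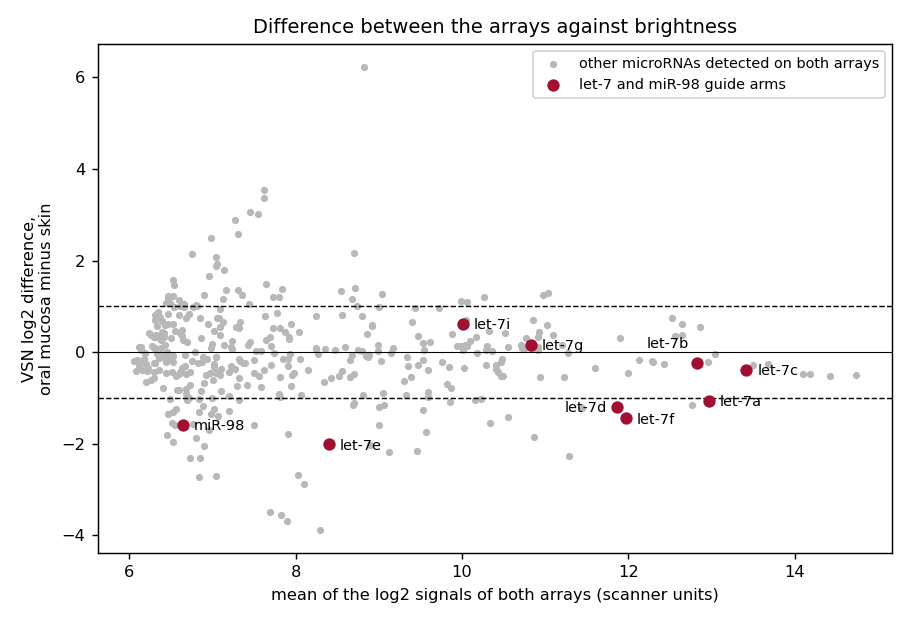
VSN log2 difference, oral mucosa minus skin, against brightness for the 394 microRNAs detected on both arrays, with the 9 members marked and dashed lines at the 2-fold rule. The members run from -2.02 (let-7e-5p) to 0.62 (let-7i-5p), and 5 of them lie below -1. The positions of let-7b-5p and let-7c-5p relative to 0 change with the scaling, and that of let-7g-5p with the choice of spots.

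From lowest to highest the order of the differences was let-7e-5p, miR-98-5p, let-7f-5p, let-7d-5p, let-7a-5p, let-7c-5p, let-7b-5p, let-7g-5p and let-7i-5p, a range of 2.64 on the log2 scale or 6.22-fold. Because it compares differences, this range does not move with a scale factor between the arrays, and it was 2.36 for log2 signals without normalization. Of the 8 steps between neighbours, 1 was larger than its combined SD, the step from let-7a-5p to let-7c-5p of 0.67 (SD 0.29). The other steps, of 0.14 to 0.47, lay within their SDs of 0.36 to 0.85, so those neighbours could not be put in order. Over all 36 pairs of members, 27 differed by more than their combined SD (75%), as did 62.7% of all pairs of microRNAs detected on both arrays. Groups formed after the values were seen kept their order in 14 of 14 settings. let-7a-5p, let-7d-5p, let-7e-5p, let-7f-5p and miR-98-5p lay lowest, let-7b-5p and let-7c-5p next, and let-7g-5p and let-7i-5p highest. Settings that differ only by a scale factor cannot change this order, and all share the same arrays. The count therefore adds no support. The step from let-7b-5p to let-7g-5p, of 0.38 (SD 0.47), lay within its error.

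Some members 1 base apart had unequal differences. The 4 pairs that are 1 base apart differed by a median of 0.53 on the log2 scale, and 3 of the 4 by more than their SD. Over all 36 pairs of members the median gap was 0.96, and 75% differed by more than their SD. The 1-base pairs were thus no further apart than members in general. let-7a-5p and let-7c-5p, which differ by A19G, gave -1.06 and -0.38. let-7a-5p and let-7e-5p, which differ by U9G, were 0.96 apart (SD 0.74), and let-7a-5p and let-7f-5p, which differ by G12A, were 0.38 apart (SD 0.31). The fourth pair, let-7b-5p and let-7c-5p, was 0.15 apart (SD 0.36), within the error. Pairs 2 bases apart differed by 0.14 to 1.63, 3 bases apart by 0.14 to 2.17 and 4 bases apart by 0.38 to 2.20. How much of a probe's signal came from a relative of nearly the same sequence was not tested.

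The repeat spots of a probe lay at different places on the array, and the part of place in the errors above was not tested. For 8 members, all but miR-98-5p, the first repeat spot was in column 1 at the edge of the array, and on the skin array 6 of these 8 first spots were dimmer than the second. On the oral mucosa array the first spot was the dimmer one only for let-7e-5p and let-7i-5p among these members. The largest gap between a member's repeat spots there was 0.32 on the log2 scale, against 0.96 in skin. The first skin spot of let-7e-5p also varied most between its pixels, with an SD of 20.1% of its brightness, against 3.13% in the second. With columns 1 and 2 left out on both arrays, the differences were -2.39 for let-7e-5p, -1.63 for let-7f-5p, -1.44 for let-7d-5p and -1.10 for let-7a-5p, each larger than with both spots. let-7c-5p moved from -0.38 to -0.63 and let-7b-5p from -0.23 to -0.34. let-7g-5p then changed sign to -0.15 and let-7i-5p fell to 0.43, and 5 members passed the rule, as before. With the first spots alone 3 members passed it, as let-7a-5p read -0.97 and let-7d-5p -0.86.

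Within the 3 let-7 clusters, 4 of 5 pairs of guide arms lay within their combined SD, and let-7a-5p and let-7f-5p, at 0.38 apart (SD 0.31), did not. Beyond their combined SD were 75% of all pairs of members and 62.7% of all pairs of microRNAs detected on both arrays. The 5 pairs are few and share arms, so no conclusion is drawn from their count. In the chr13 cluster, let-7a-5p, let-7f-5p and let-7d-5p read -1.06, -1.44 and -1.19, all higher in skin. In the chr15 cluster, let-7c-5p and let-7b-5p read -0.38 and -0.23. In the X-linked cluster, let-7f-5p and miR-98-5p read -1.44 and -1.58. As let-7a-5p, let-7c-5p and let-7f-5p are each also made from a second locus, these values are sums over loci.

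Genes of the miR-99/100 and miR-125 families lie on the same chromosomes as 3 of the let-7 genes, and 0 of these 5 microRNAs passed the size rule. Of the 394 microRNAs detected on both arrays, 105 passed it, and a list of 5 is too short to set against that share. Beside Mirlet7c-1, miR-99a-5p read 1418 and 1265 in skin and 2412 and 2135 in oral mucosa, which gave 0.31 (SD 0.17), against -0.38 for let-7c-5p. Beside Mirlet7e, miR-99b-5p differed by -0.64 (SD 0.21), against -2.02 for let-7e-5p. Beside Mirlet7a-2, miR-100-5p differed by -0.38 (SD 0.30), against -1.06 for let-7a-5p, and was 0.11 without normalization. In each case the partner lay on the oral mucosa side of the guide arm of its neighbour. The skin values of miR-125a-5p and miR-125b-5p rested on spots that disagreed, with 37.0 and 1907 for miR-125a-5p and 9137 and 48.5 for miR-125b-5p, so their differences of -0.68 (SD 7.49) and 0.35 (SD 6.89) carry little information. With columns 1 and 2 left out they were -1.42 and -0.44.

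**Figure D3:**
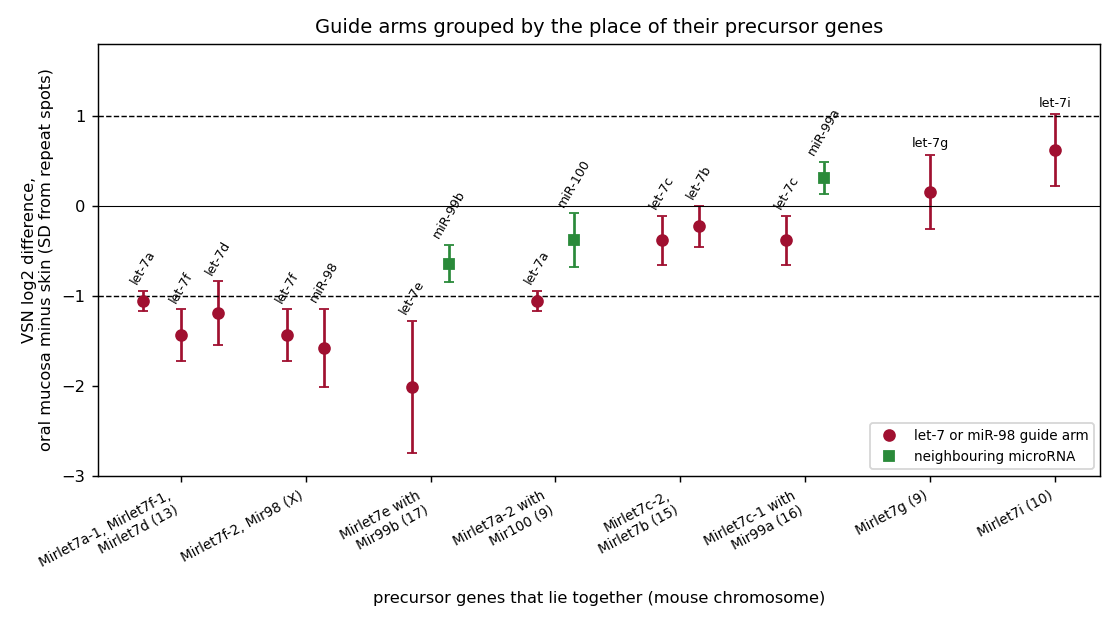
VSN log2 difference, oral mucosa minus skin, of the let-7 and miR-98 guide arms and of neighbouring microRNAs, grouped by genomic locus, with bars for the SD from repeat spots. let-7a-5p, let-7f-5p and let-7d-5p of the chr13 cluster lie at -1.06, -1.44 and -1.19, and let-7c-5p and let-7b-5p of the chr15 cluster, whose sign changes with the scaling, at -0.38 and -0.23.

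Most passenger arms of the same precursors were too dim to compare. Of 11 probes for let-7 or miR-98 -3p arms, 4 were detected on at least 1 array and 3 on both. Of these 3, 0 were past 2-fold, and their median difference was 0.09. The detected arms were the following, with bases 2 to 8 in capitals, shown because they differ from the guide arm seed.
mmu-let-7a-1-3p: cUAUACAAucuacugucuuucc
mmu-let-7b-3p: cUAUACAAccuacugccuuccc
mmu-let-7d-3p: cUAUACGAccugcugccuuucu
mmu-let-7g-3p: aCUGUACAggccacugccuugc

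let-7a-1-3p, whose probe also reads the identical let-7c-2-3p, read 75.6 and 81.4 in skin and 127 and 115 in oral mucosa. It differed by 0.43 (SD 0.22). The guide arm let-7a-5p lay in the other direction, at -1.06. let-7b-3p read 79.6 and 84.6 in skin and 103 and 104 in oral mucosa. It differed by -0.08 (SD 0.12), and by 0.34 without normalization. let-7d-3p read 172 and 336 in skin and 383 and 345 in oral mucosa. Its value of 0.09 (SD 0.82) turned to -0.43 with columns 1 and 2 left out, against -1.19 for let-7d-5p. let-7g-3p passed the limit only on the oral mucosa array, at 91.5 and 81.6, and lay 0.41 above the dimmest signal detected in skin (0.07 to 0.71 over the settings), so that by VSN it was at least 1.33-fold higher in oral mucosa and cannot be placed on either side of 2-fold. These arms read near the detection limit, apart from let-7d-3p, and depth of signal limits what can be said of them.

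A further 3 probes carry a let-7 name or the let-7 seed without being in the list, and their sequences are shown because they depart from the members. Capitals mark the seed positions, as above, and not the departing bases. Only let-7j departs from the let-7 seed within the capitals, and all other departures are in lower case.
mmu-let-7k: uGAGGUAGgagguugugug
mmu-let-7j: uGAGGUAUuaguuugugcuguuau
mmu-miR-1961: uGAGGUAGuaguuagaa

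let-7k was, like let-7e-5p, higher in skin. It read 1497 and 919 in skin and 380 and 435 in oral mucosa, without overlap. It differed by -2.16 (SD 0.54), higher in skin under 14 of 14 settings. It differs from let-7e-5p by A17G and A19G over the bases they share, and the values of the pair were 0.14 apart (SD 0.91). From let-7b-5p it differs by U9G alone, and there the values were 1.93 apart (SD 0.58). let-7j, which departs from let-7i-5p by G8U within the seed, read 402 and 406 in skin and 482 and 564 in oral mucosa. Its difference was -0.08 (SD 0.18), with a sign that was negative in 7 and positive in 7 of 14 settings. miR-1961 was detected on neither array. Both let-7e-5p and let-7k carry U9G relative to let-7a-5p, and how far their probes read the same RNA was not tested.

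The authors also deposited a processed value per microRNA and array, made by a method not given in the sources used here. These values kept the split among the members. In skin and oral mucosa they were 6091 and 2559 for let-7f-5p, 5103 and 2554 for let-7d-5p, and 10420 and 5680 for let-7a-5p, all higher in skin. They were 7110 and 6912 for let-7b-5p and 11380 and 9852 for let-7c-5p, and turned the other way to 1594 and 1974 for let-7g-5p and 762 and 1270 for let-7i-5p. miR-98-5p was at 100 and 29, and let-7e-5p at 557 in skin and lower in oral mucosa. On the log2(value + 50) scale, which understates changes of dim microRNAs, the members' median difference was -0.87, and 2 members, let-7e-5p at -1.65 and let-7f-5p at -1.23, were past 2-fold.

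**Figure D4:**
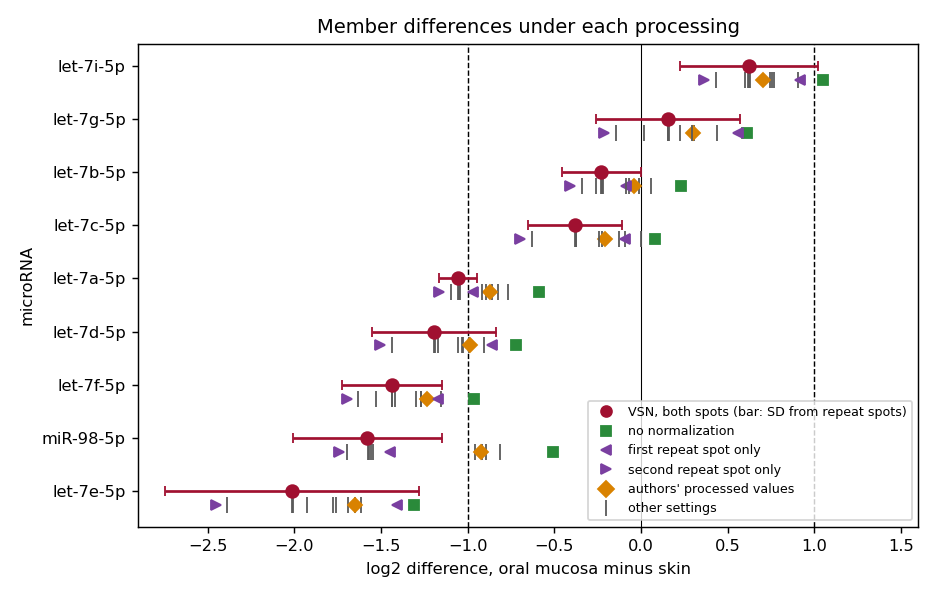
Log2 difference, oral mucosa minus skin, of each member under VSN with both spots (circle with the SD from repeat spots) and under the other 13 scalings and spot choices, with dashed lines at 2-fold. let-7e-5p stays past the rule throughout, from -2.45 to -1.31, whereas let-7b-5p, let-7c-5p and let-7g-5p lie on either side of 0 depending on the setting.

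The microRNAs whose differences were nearest to the members' median of -1.06, among 230 detected on both arrays and at least as bright as the dimmest member on each, were miR-677-3p at -1.05 (SD 0.44), miR-1224-5p at -1.04 (SD 0.06) and miR-6973a-5p at -1.03 (SD 0.22). Likeness here is only the closeness of 1 difference between 2 arrays.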

How the data were processed

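RNA of 2 pools, 1 per tissue from 3 animals each, was profiled on LC Sciences arrays. The authors deposited the median Cy5 intensity of every spot, without background subtraction or normalization, and 1 processed intensity per microRNA and array, by a method not given in the sources used here. Each array held 3968 spots, of which 184 were controls. Empty spots read 36.4 ± 7.84 (SD, n = 16) in skin and 51.9 ± 6.65 in oral mucosa. Repeat spots were averaged, and control spots were left out of all tissue values. VSN, which the methods name, was coded in Python 3.11.15 (numpy 2.4.6, scipy 1.17.1, pandas 2.3.3) and tested on simulated data. The simulated spots had the same relative error on both arrays. In the data, repeat spots of detected probes had an SD of 0.98 in skin and 0.37 in oral mucosa on the VSN log2 scale. The simulation therefore does not cover the error of the skin array. The VSN fit used an arsinh transformation and least trimmed squares, with several starts. Of 5 slices of brightness the dimmest was kept whole, and each of the others kept 90% of its probes. For a probe detected on 1 array, the other value was the higher of its own and the lowest detected. The SD of a difference is the root of the summed squares of the 2 arrays' repeat-spot SDs. CyberT, named in the methods, was not run, as repeat spots would compare arrays and not tissues. Cyclic loess and normexp (offset 50) alternatives used limma 3.58.1 in R 4.3.3, and quantile normalization was coded in Python. Processed values were used as log2(value + 50). Scaling to 14 spike controls was chosen after seeing the data.

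Named microRNAs were the 9 members, all let-7 and miR-98 -3p probes, other probes with the let-7a seed or a let-7 name, the miR-99, miR-100 and miR-125 partners, and the 3 nearest non-members, beside the cell type lists. The members and lists were chosen with earlier results of these data known. miR-486a-5p and the miR-142a arms were not analysed here. The number of arrays limits the precision.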

Additional observations from a re-analysis of the deposited data

How the results depend on the processing

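No paired analysis was possible because there was 1 pool per tissue. Of the 161 microRNAs past the size rule, 5 were members. With quantile normalization 80 microRNAs and 2 members passed it, with scaling to the array median 85 and 3, with cyclic loess 85 and 3, with scaling to the 75th percentile 85 and 4 members, without normalization 102 and 2, and with the processed values 87 and 2. The members passing were 3 with the empty spots subtracted and 75th percentile scaling, 3 with the first repeat spots alone, and 1 at a 4-fold rule. A 1.5-fold rule called 257 microRNAs in all and a 4-fold rule 46, the absence of a detection filter 627 with 4 passenger arms among them, and detection on both arrays 105. The members' median difference was -0.51 without normalization and -1.17 to -0.77 under the other settings. Less the median of all detected microRNAs it was -1.12 to -0.81 throughout. Calls higher in oral mucosa were 47.8% of all calls with VSN and 78.4% without normalization, where the median of all detected microRNAs was 0.40. The cause was not tested. No replicate could be left out, and the brightness of miR-98-5p and of the passenger arms, close to the empty spots, limits their values.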
